A study of Mus musculus with 8 samples.

Results

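The oral epithelium covers the embryonic tongue bud, and on its upper surface local thickenings called taste placodes form and give rise to the taste papillae. A set of 36 genes of this epithelium was followed in tongue buds of mouse embryos whose neural crest cells were targeted for loss of Alk5, also named Tgfbr1, a TGF-beta receptor. The genes were taken by name from a list of keratins, junction proteins, epithelial transcription and splicing regulators, and other epithelial proteins, and all 36 were measured, out of 18193 genes with a probe set that names that gene alone. Each was read on its brightest probe set. Apart from Sox2, a transcription factor of taste progenitors, and Krt8, which marks developing taste cells, most of the listed genes mark epithelium in general rather than taste papillae.

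Mutant embryos carried Wnt1-Cre together with Alk5 fl/fl (4 tongue buds), and control embryos carried Alk5 fl/fl without Cre (4 tongue buds). Both groups were on C57BL/6J, were collected at embryonic day 13.5, and had undetermined sex according to the labels. The floxed alleles were shared by both groups, and no group carried the transgene alone, so an effect of Cre and one of the lost receptor cannot be told apart. Wnt1-Cre acts in the neural crest, which gives rise to most mesenchyme and to the Schwann cells of the bud. The oral epithelium comes from the ectoderm and endoderm, so its cells were not the target of the deletion. The question asked of these genes was whether epithelial transcripts of the whole bud differed between the genotypes. Nothing in the labels says that the buds came from separate litters, so p-values measure only the spread between these samples.

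Stratified oral epithelium grows from a basal layer that is anchored to a basement membrane, expresses Trp63 and keratins 5, 14 and 15, and is capped by a flat superficial layer, the periderm. Keratins are filament proteins that assemble in pairs of one type I and one type II chain. Keratins 8 and 18 form such a pair in simple epithelia, in periderm and in developing taste cells, with keratins 7 and 19 often beside them. Desmosomes and tight junctions join the cells, and Grhl, Ovol and Esrp factors maintain the epithelial state through transcription and splicing.

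Before the epithelial genes are described, a few facts of the arrays bear on them. Array medians lay between 5.96 and 6.01 on the log2 scale. Tgfbr1 read 12.36 to 12.42 on the mutant arrays and 11.89 to 12.12 on the control arrays (log2 change 0.39, limma adjusted p = 0.00342). Where its probes lie relative to the floxed part is not known here, so this value is no check of the deletion or of the labels. The defining markers of oral epithelium, Krt5, Krt14, Krt15, Epcam, Cdh1 and Trp63, all read above the array medians on every array, and 2 of the 36 genes, Krt13 and Ovol1, had a mean below the median of all values (5.99). That median covers all probe sets, and 6037 of the 18193 genes lay below it. Of the 36 genes 23 lay above the median gene level of 7.46. Control 3 lacked Y-linked signal. The second principal component, with 18.7% of the variance, placed mutant 1 at 15.2 and the other mutants at −7.05 to 3.98, and control 1 at −18.2 and the other controls at −3.41 to 8.20.

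Of the 36 epithelial genes 4 fell in mutants and 0 rose, at a limma adjusted p of 0.05 taken over all 18193 genes. Over all genes 9.72% were called, 5.52% lower and 4.2% higher, so 4 of 36 is a share near the background. The genes that fell were Krt7 and Krt18, keratins of simple epithelium and superficial cells, Rab25, a small GTPase of membrane recycling in epithelial cells, and Prom1, a protein of membrane protrusions also called CD133. The other 32 did not pass, with log2 changes of −0.37 to 0.14 and limma adjusted p-values of 0.0692 to 0.986. Of the 36 genes, 12 had an unadjusted limma p under 0.05, as did 4333 of all 18193 genes. Of the 36 log2 changes 35 were negative and 1 was positive, with a median of −0.17 against −0.01 over all genes. The negative changes are not independent of each other, because all genes were read on the same buds. In RNA of whole buds, fewer epithelial cells and less RNA per cell cannot be told apart.

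**Figure D1:**
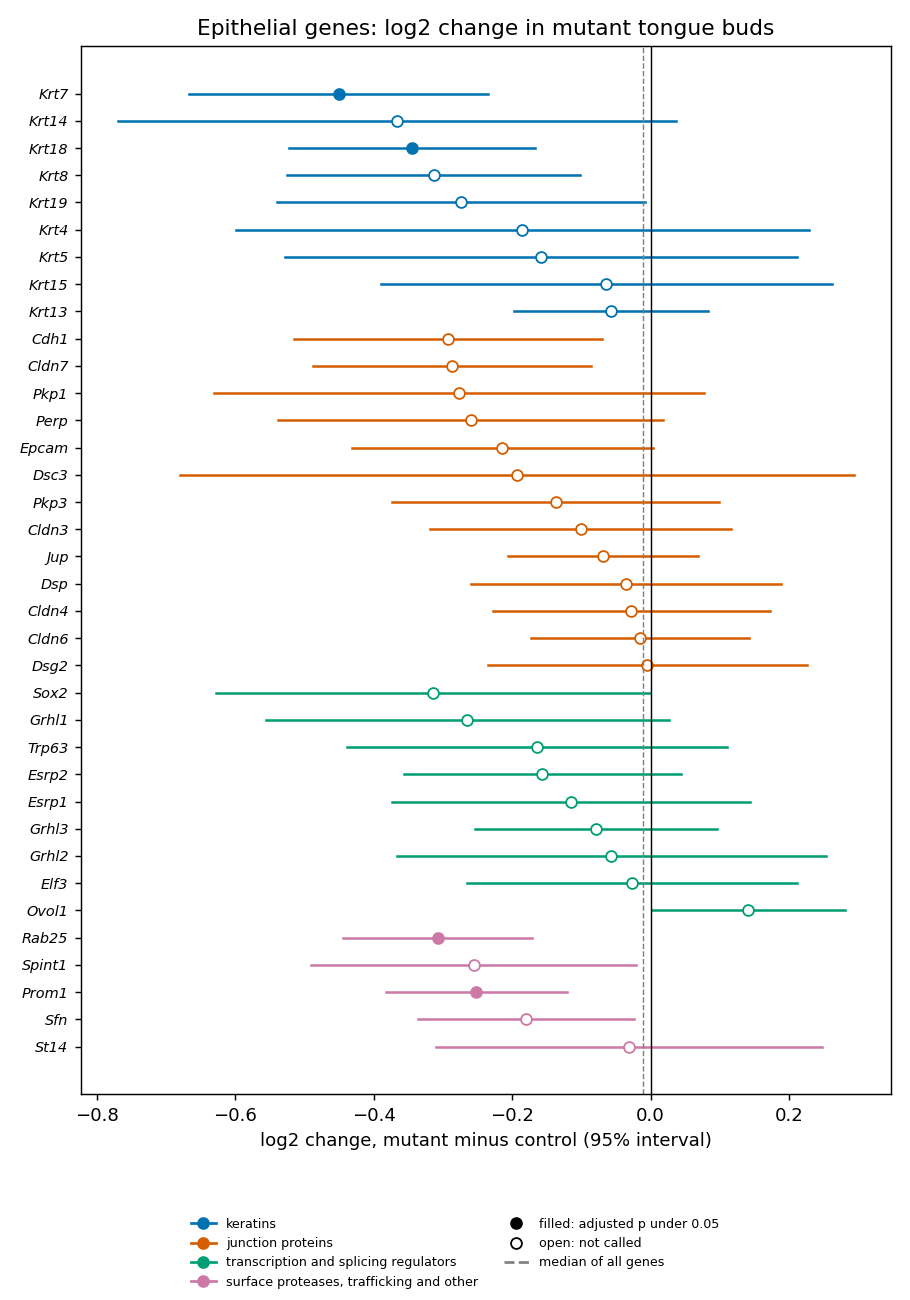
Log2 change (mutant minus control) of each of the 36 epithelial genes with its 95% interval from limma, grouped by role, with filled points for an adjusted p under 0.05 over all genes. The 4 filled points are Krt7, Krt18, Rab25 and Prom1, and all points but Ovol1 lie to the left of 0.

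The upstream sequences of these 4 genes are printed because they are the members that passed the test. RefSeq windows (GRCm38.p6) of 250 bases before to 50 after a transcript start were given for 21 of the 36 genes, in 25 windows. Each window was searched on both strands for AACCNGTT, the type of site bound by Grhl factors, for a p63-type pair of CATG boxes with 3 bases between them, and for TATAAA, the TATA box. The Rab25 window lies at chr3:88548230-88548529 on the minus strand. Prom1 has 2 windows on the minus strand, Prom1 (a) at chr5:44094719-44095018 and Prom1 (b) at chr5:44101687-44101986. The Krt18 window at chr15:102027966-102028265 and the Krt7 window at chr15:101412153-101412452 are on the plus strand. Capitals mark a match to AACCNGTT on either strand.
Rab25: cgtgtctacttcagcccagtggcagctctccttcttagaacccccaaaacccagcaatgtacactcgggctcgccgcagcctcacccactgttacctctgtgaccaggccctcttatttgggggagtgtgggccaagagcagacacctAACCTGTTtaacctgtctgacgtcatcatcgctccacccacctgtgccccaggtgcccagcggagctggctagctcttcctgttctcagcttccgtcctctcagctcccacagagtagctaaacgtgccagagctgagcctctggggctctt
Prom1 (a): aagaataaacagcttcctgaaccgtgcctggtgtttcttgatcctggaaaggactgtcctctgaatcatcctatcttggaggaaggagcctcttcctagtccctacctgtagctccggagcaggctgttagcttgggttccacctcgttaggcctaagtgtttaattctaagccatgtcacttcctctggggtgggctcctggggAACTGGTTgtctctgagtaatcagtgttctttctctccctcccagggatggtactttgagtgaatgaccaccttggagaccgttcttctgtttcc
Prom1 (b): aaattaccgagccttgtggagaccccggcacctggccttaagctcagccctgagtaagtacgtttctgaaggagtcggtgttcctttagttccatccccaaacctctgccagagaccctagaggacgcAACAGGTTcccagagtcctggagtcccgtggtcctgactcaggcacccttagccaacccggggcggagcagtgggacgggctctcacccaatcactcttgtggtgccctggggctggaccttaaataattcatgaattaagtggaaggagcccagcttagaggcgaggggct
Krt18: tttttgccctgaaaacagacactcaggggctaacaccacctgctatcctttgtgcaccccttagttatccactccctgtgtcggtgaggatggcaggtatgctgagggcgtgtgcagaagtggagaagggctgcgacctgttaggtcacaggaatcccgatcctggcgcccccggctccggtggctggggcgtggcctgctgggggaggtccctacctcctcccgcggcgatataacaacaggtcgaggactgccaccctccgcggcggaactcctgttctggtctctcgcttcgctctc
Krt7: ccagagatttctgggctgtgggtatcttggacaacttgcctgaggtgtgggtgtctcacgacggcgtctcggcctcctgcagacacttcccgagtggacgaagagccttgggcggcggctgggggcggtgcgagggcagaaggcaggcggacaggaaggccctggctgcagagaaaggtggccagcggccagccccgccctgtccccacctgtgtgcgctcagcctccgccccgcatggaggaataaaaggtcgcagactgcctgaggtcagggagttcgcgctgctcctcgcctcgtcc

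The AACCNGTT letters were present in the Rab25 window, starting at position −102 from the transcript start, and in both Prom1 windows, at −45 and −122. No match to the searched motifs was in the windows of Krt18 and Krt7. Among all 36 genes, Sfn was the only other one with AACCNGTT in a window. This makes 3 of the 21 genes with a window, and 4 of their 25 windows. Across 32851 windows of the same source 2.09% held these letters. The CATG pair was found in the Krt14 window and in 0.396% of all windows, and TATAAA in the Krt8 window and in 13.6% of all windows. These matches are descriptions of the sequence and were not tested for binding.

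Krt7, a type II keratin of simple and glandular epithelium, read 7.24, 7.13, 7.04 and 7.44 on mutants 1 to 4, against 7.50, 7.63, 7.82 and 7.69 on controls 1 to 4 (probe set 1423952_a_at). Every mutant value was below every control value. Krt7 averaged 7.21 ± 0.173 in mutants and 7.66 ± 0.133 in controls (SD, n = 4 each). The log2 change was −0.45 (SE 0.096, 95% interval −0.67 to −0.23, limma adjusted p = 0.0183), which is 0.732 of the control level. This was the most negative change among the 36 genes.

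Krt18, the type I keratin that pairs with Krt8, read 9.58, 9.60, 9.72 and 9.88 on mutants 1 to 4, against 9.90, 10.15, 10.06 and 10.05 on controls 1 to 4 (1448169_at). The groups did not overlap, but mutant 4 came close to control 1. The log2 change was −0.34 (SE 0.0789, limma adjusted p = 0.0246). Krt8, the type II partner of Krt18, read 9.58, 9.46, 9.54 and 9.77 in mutants, against 9.68, 10.06, 9.88 and 9.99 in controls (1420647_a_at). Here mutant 4 lay above control 1, and the log2 change of −0.31 (SE 0.0941) did not pass (limma adjusted p = 0.0692). Without control 1 Krt8 was −0.39 and passed (adjusted p = 0.0251). That was the only pass in 8 fits with 1 array left out, where changes reached −0.26 and limma adjusted p-values 0.172. The 2 dimmer probe sets of Krt8 gave −0.21 and −0.30. In RefSeq, Krt8 and Krt18 are neighbours on chromosome 15 with 0 protein-coding genes between them.

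Krt19, a type I keratin of simple and taste epithelium that lacks most of the tail of other keratins, read 8.35, 8.20, 8.15 and 8.50 in mutants and 8.24, 8.73, 8.72 and 8.60 in controls. Control 1 was as low as the mutants, and the log2 change of −0.27 (SE 0.118) did not pass (limma adjusted p = 0.196). Without control 1 the change was −0.38 and passed (adjusted p = 0.0356). Krt19 passed in only this 1 of 8 fits with 1 array left out, where changes reached −0.22 and limma adjusted p-values 0.381.

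Of the basal keratins, Krt14 and Krt5 spread more among the mutants (SD 0.361 and 0.343) than among the controls (0.246 and 0.205). Krt15 spread less among the mutants (0.191) than among the controls (0.291). Krt14 read 9.54, 10.02, 10.11 and 10.41 in mutants and 10.45, 10.29, 10.12 and 10.70 in controls, a log2 change of −0.37 (limma adjusted p = 0.254). Its point estimate was larger than that of Krt18, yet its standard error of 0.179 against 0.0789 was wider, with mutant 1 far below the other arrays. Without mutant 1 Krt14 differed by −0.21 (adjusted p = 0.439). Krt14 shares sequence with Krt17, and a probe set annotated to both was left out. Its type II partner Krt5 differed by −0.16 (95% interval −0.53 to 0.21; −0.01 without mutant 1) and Krt15, another basal type I keratin, by −0.06 (−0.39 to 0.26). Krt4 and Krt13, the keratin pair of mature suprabasal oral mucosa, differed by −0.19 and −0.06, and Krt13 lay between 3.84 and 4.04 on all arrays, below the array medians. The dimmer probe set of Krt4, 1438394_x_at, gave −0.64 (unadjusted p = 0.0489, limma adjusted p = 0.287 over all probe sets), and the average of both sets gave −0.41 (adjusted p = 0.307). With 1 array left out Krt4 ran from −0.33 without control 1 to −0.00 without control 4. Of the 9 keratins, 2 fell, 7 did not pass, and the median log2 change was −0.27.

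**Figure D2:**
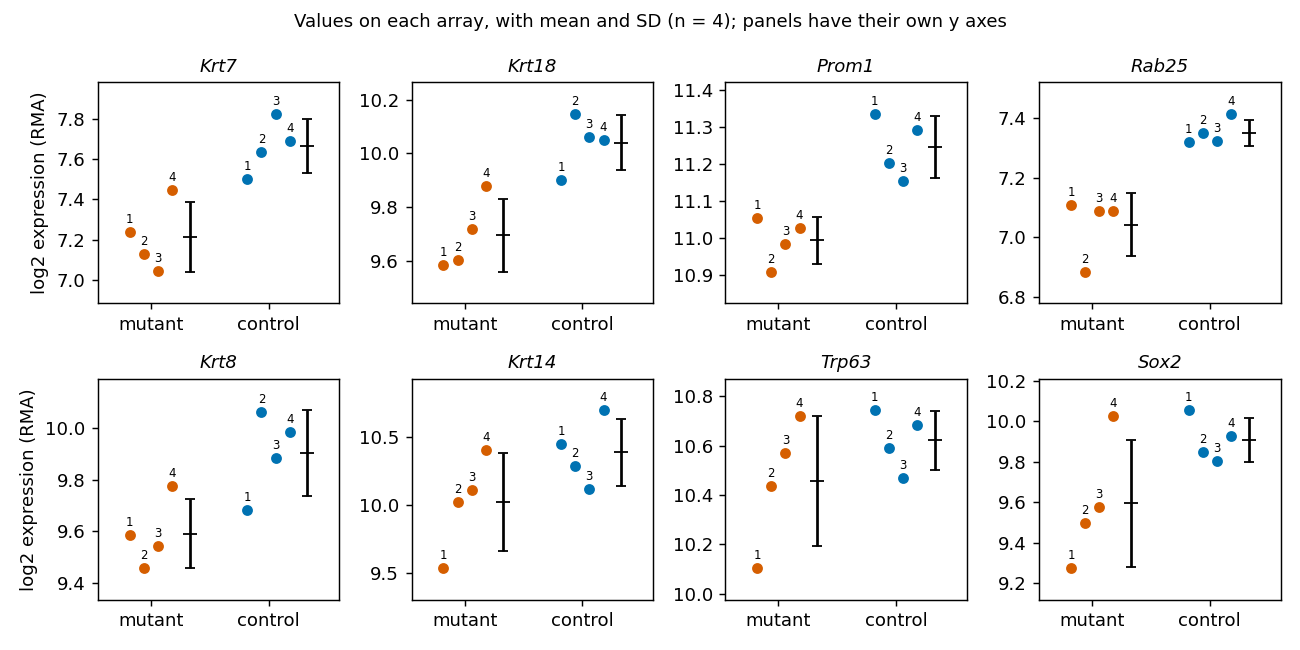
Log2 expression of 8 epithelial genes on each array, with array numbers beside the points and black bars for the mean and SD (n = 4 in each group). In Krt7, Krt18, Prom1 and Rab25 the mutant points all lie below the control points, while in Krt8, Krt14, Trp63 and Sox2 mutant 4 lies within or above part of the control range.

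None of the 13 junction genes passed in limma (2 at an unadjusted p under 0.05), and their median log2 change was −0.14, with single changes of −0.29 to −0.00. Cdh1 encodes E-cadherin, the adhesion protein of epithelial adherens junctions. It read 10.55, 10.72, 10.91 and 11.02 on mutants 1 to 4, against 11.19, 11.13, 10.98 and 11.07 on controls 1 to 4, so that mutant 4 overlapped control 3. The log2 change was −0.29 (SE 0.0991, limma adjusted p = 0.104). Cldn7, a claudin of the tight junction and lateral membrane, read 8.53, 8.48, 8.68 and 8.85 in mutants and 8.82, 8.90, 8.89 and 9.07 in controls. Only mutant 4 entered the control range, above control 1, and the log2 change was −0.29 (SE 0.0893, limma adjusted p = 0.0794). Without mutant 4 it was −0.36 and passed (adjusted p = 0.0322). Cldn7 passed in only this 1 of 8 fits with 1 array left out, where changes reached −0.23 and limma adjusted p-values 0.19.

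Epcam, a surface glycoprotein of epithelial cells that binds claudin 7, read 10.24, 10.33, 10.46 and 10.67 in mutants and 10.58, 10.74, 10.50 and 10.73 in controls (log2 change −0.21, SE 0.0966, limma adjusted p = 0.216). On its dimmer probe set, 1447899_x_at, all mutant values were below all control values with a log2 change of −0.25, which did not pass over all probe sets (adjusted p = 0.116). Perp, a desmosomal membrane protein under the control of p63, read 10.52, 10.83, 10.98 and 11.13 in mutants and 11.18, 11.09, 10.96 and 11.27 in controls (log2 change −0.26, limma adjusted p = 0.241). In both genes mutant 1 was the lowest array and mutant 4 lay within the control range. Without mutant 1 Epcam differed by −0.15 and Perp by −0.14.

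The desmosome genes differed among themselves in how far their values spread. Dsc3, a desmosomal cadherin of basal cells shown here because its values spread most, had the widest spread of the set in mutants, with 8.02, 8.49, 8.90 and 9.00, against 9.21, 8.73, 8.53 and 8.71 in controls (log2 change −0.19, 95% interval −0.68 to 0.29). Without mutant 1 Dsc3 differed by −0.00 and without control 1 by −0.05. Pkp1, a plaque protein of stratified epithelium, differed by −0.28 (−0.63 to 0.08) and Pkp3 by −0.14. Dsp and Jup, the plaque proteins desmoplakin and plakoglobin, differed by −0.04 and −0.07. Dsg2, a desmosomal cadherin of simple and dividing epithelium, differed by −0.00 on its brightest probe set and by 0.16 to 0.26 on its other 5, none of which passed. Among the claudins Cldn3, Cldn4 and Cldn6 differed by −0.10, −0.03 and −0.02, and the 95% interval of Cldn4 ran from −0.23 to 0.17.

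No regulator passed in limma among the 9 measured (2 at an unadjusted p under 0.05), and their median log2 change was −0.12. Trp63 encodes p63, the transcription factor required for stratified epithelium. It read 10.10, 10.44, 10.57 and 10.72 on mutants 1 to 4, against 10.74, 10.59, 10.47 and 10.68 on controls 1 to 4. Only mutants 1 and 2 lay below all controls, and the log2 change was −0.16 (SE 0.122, limma adjusted p = 0.467). Without mutant 1 it was −0.05 (adjusted p = 0.805). The 3 other probe sets of Trp63 gave −0.21 to −0.04.

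Sox2, which marks taste placodes and the progenitors of taste buds, read 9.27, 9.50, 9.58 and 10.03 in mutants and 10.05, 9.85, 9.80 and 9.93 in controls. Mutant 1 was the lowest of all arrays, and mutant 4 lay above 3 of the controls. The log2 change was −0.31 (SE 0.139) and did not pass (limma adjusted p = 0.209), but without mutant 4 it was −0.46 and passed (adjusted p = 0.0227), while without mutant 1 it was −0.21 (adjusted p = 0.375). A single array thus decided the call.

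The grainyhead-like factors Grhl1, Grhl2 and Grhl3, which switch on junction and barrier genes, differed by −0.26, −0.06 and −0.08. Grhl1 read 6.64, 6.76, 6.97 and 7.03 in mutants and 7.13, 7.46, 6.92 and 6.96 in controls (limma adjusted p = 0.253). Esrp1 and Esrp2, the splicing factors that set epithelial exon choices, including that of Fgfr2, differed by −0.12 and −0.16. Esrp2 read 7.71, 7.73, 7.85 and 7.98 in mutants and 8.04, 7.99, 7.76 and 8.11 in controls (limma adjusted p = 0.328). In each of these 5 genes the groups overlapped.

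Ovol1, a zinc-finger transcription factor of epithelial cells, was the only member with a positive change. It read 4.94, 4.94, 4.93 and 5.13 in mutants and 4.92, 4.86, 4.79 and 4.79 in controls, a log2 change of 0.14 (SE 0.0618) that did not pass (limma adjusted p = 0.202). The groups did not overlap, but 3 mutants came close to control 1, and all values lay below the array medians. Elf3, an ETS factor of differentiating epithelium, differed by −0.03.

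Rab25 gave the smallest adjusted p of the set. It read 7.11, 6.89, 7.09 and 7.09 on mutants 1 to 4, against 7.32, 7.35, 7.32 and 7.41 on controls 1 to 4 (1417738_at), and the groups did not overlap. Rab25 averaged 7.04 ± 0.106 in mutants and 7.35 ± 0.0437 in controls (SD, n = 4 each). The log2 change was −0.31 (SE 0.061, limma adjusted p = 0.0129), which is 0.808 of the control level. With each array left out in turn Rab25 passed in all 8 fits, at changes of −0.33 to −0.26.

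Prom1 read 11.06, 10.91, 10.98 and 11.03 in mutants, against 11.34, 11.20, 11.15 and 11.29 in controls (1419700_a_at). Again no mutant reached a control value. The log2 change was −0.25 (SE 0.0582, limma adjusted p = 0.0256) or 0.84 of the control level. Prom1 is also expressed outside epithelium, among other places in neural progenitors, and the share of epithelium in its signal was not tested.

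The calls were also read over all 45037 probe sets, of which 4.43% were called and 2.42% called lower. Krt7, Krt18 and Rab25 passed there and Prom1 did not (limma adjusted p = 0.052). The 36 genes have 28 further probe sets, of which 21 had the sign of the brightest one, 3 had an unadjusted p under 0.05 and 0 passed in limma.

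The remaining genes of the group, other than Rab25 and Prom1, did not pass. Sfn, the 14-3-3 protein stratifin of stratified epithelium, read 6.87, 6.98, 7.07 and 7.13 in mutants and 7.26, 7.19, 7.07 and 7.25 in controls (log2 change −0.18, limma adjusted p = 0.15). Spint1, an inhibitor of the membrane protease matriptase, read 6.80, 6.64, 6.91 and 7.09 in mutants and 7.15, 7.22, 6.90 and 7.20 in controls (log2 change −0.26, adjusted p = 0.173). Both were low on mutants 1 and 2. St14, which encodes matriptase itself, differed by −0.03 (95% interval −0.31 to 0.25).

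In 5 of the 36 genes the groups did not overlap, 4 lower and 1 higher. Over all genes 17.8% showed such a separation, 8.87% lower and 8.92% higher. For the 32 genes that did not pass, the arrays do not show that the level was equal: a fall of 0.3 on the log2 scale or more lay within the 95% interval of 23 of them.

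The 36 genes varied together between arrays. Each gene's deviation from its own mean over the 8 arrays was averaged over the genes, which gave −0.24, −0.14, −0.06 and 0.11 on mutants 1 to 4, against 0.06, 0.14, −0.03 and 0.17 on controls 1 to 4. The groups overlapped, since mutant 4 exceeded controls 1 and 3. Mutant 1 was below all 4 controls in 27 of the 36 genes and had the lowest value of all 8 arrays in 20. Without mutant 1 the median log2 change of the 36 genes was −0.13. Mutant 4 had the highest value among the mutants in 30 genes, and it lay above the control mean in 20. Among the controls, control 3 was the lowest in 22 genes. On the second principal component mutants 1 to 4 stood at 15.2, 3.98, −7.05 and −5.32, and controls 1 to 4 at −18.2, −3.41, 8.20 and 6.55. Among the mutants the order of these positions was opposite to that of the mean deviations, except that mutants 3 and 4 were swapped. Among the controls, control 1 had the lowest position, control 3 the highest position and lowest deviation, and control 4 the highest deviation. The part of that component in these values was not tested.

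**Figure D3:**
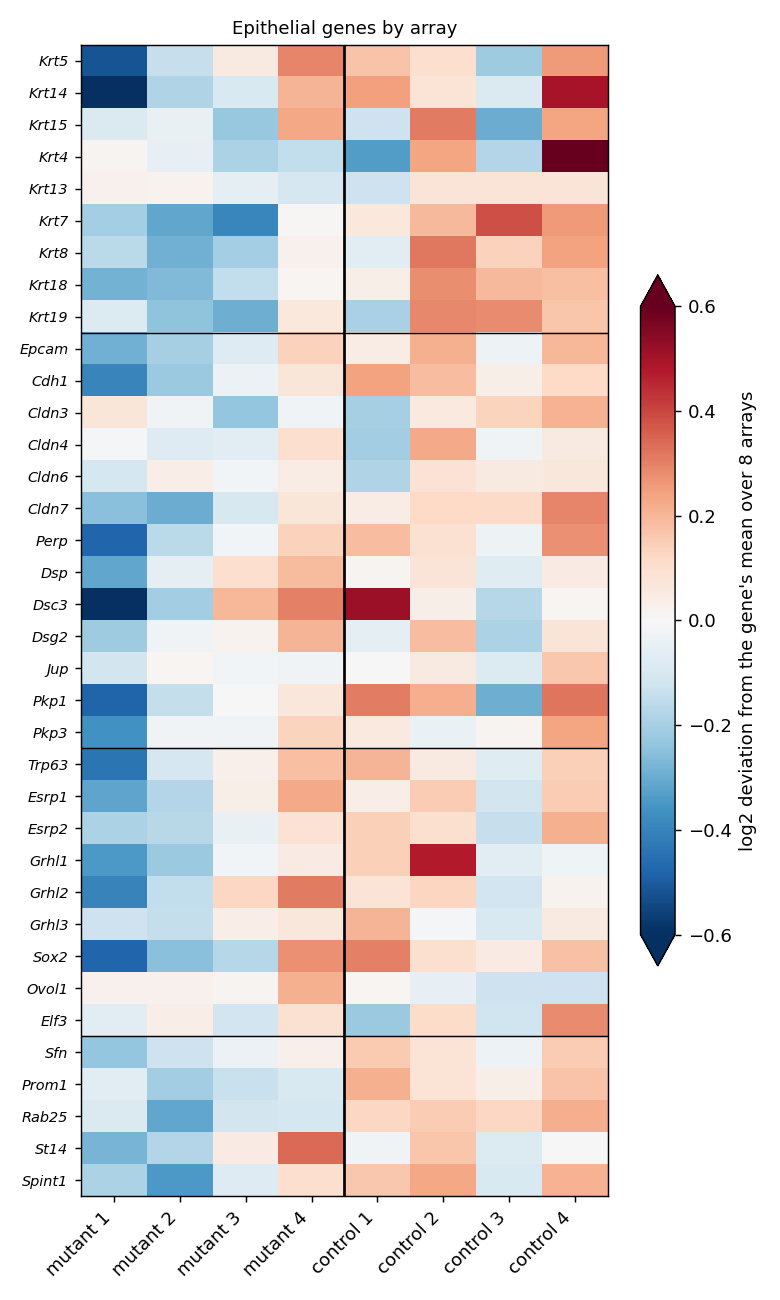
Deviation of each epithelial gene from its own mean over 8 arrays (log2, colour scale from −0.6 to 0.6), with mutants in the left columns, controls in the right columns and horizontal lines between role groups. Mutant 1 is blue for most genes and mutant 4 red for most, while Krt7, Krt18, Prom1 and Rab25 are near or below 0 on every mutant array.

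Mutant 4 was also the highest mutant for Krt7 and Krt18, though not for Prom1 and Rab25. Without mutant 1 the changes were −0.46 for Krt7 (limma adjusted p = 0.0369), −0.27 for Prom1 (0.0355) and −0.33 for Rab25 (0.0199), and Krt18 at −0.31 no longer passed (0.0596). Without control 1 the changes were −0.50 for Krt7 (0.0173), −0.39 for Krt18 (0.02) and −0.32 for Rab25 (0.0252), and Prom1 at −0.22 no longer passed (0.0553). Without control 3 they were −0.40 for Krt7 (0.0456), −0.28 for Prom1 (0.0261), −0.32 for Rab25 (0.0284) and −0.34 for Krt18, which did not pass (0.0591). With each array left out in turn, Krt7 passed in 6 of 8 fits, Krt18 in 2 and Prom1 in 2. Krt7 was lost without mutant 2 (0.0575) or mutant 3 (0.0508), and then Rab25 alone of the 36 passed, while 2 genes passed without control 2 or control 4. Their changes kept the negative sign in all of these fits, within −0.53 to −0.39 for Krt7, −0.41 to −0.31 for Krt18 and −0.28 to −0.22 for Prom1. Without controls 1 and 3 together, Krt4, Krt8 and Krt18 passed, while Krt7 (0.0549), Prom1 (0.0691) and Rab25 (0.0516) did not. In that fit 6.69% of all genes were called.

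Further epithelial genes outside the list that passed moved in both directions. Of 19 measured adhesion, keratin and basement membrane genes of stratified epithelium, 2 fell, 1 rose and 16 did not pass, with a median log2 change of −0.15. Of their log2 changes 17 were negative and 2 positive, and over all 18193 genes 9711 were negative. Pkp2, a desmosomal plaque protein present in many tissues, fell by 0.89 on the log2 scale, with 6.70, 6.85, 6.99 and 7.25 in mutants and 7.99, 7.87, 7.60 and 7.89 in controls (limma adjusted p = 0.00239). Itga6, an integrin subunit of hemidesmosomes that is also made by endothelium and nerve, changed by −0.25 (adjusted p = 0.028). Cldn1, a claudin of stratified epithelium, rose by 0.70, with 9.57, 9.90, 9.78 and 9.40 in mutants and 9.38, 8.65, 9.00 and 8.83 in controls (adjusted p = 0.0239). The list thus held a desmosomal gene and a tight junction gene with opposite changes. With each array left out in turn Pkp2 passed in 8 of 8 fits (−0.99 to −0.80), Cldn1 in 3 (0.59 to 0.83) and Itga6 in 1 (−0.29 to −0.22). Averaged over each gene's probe sets, Pkp2 changed by −0.39 (adjusted p = 0.0252) and Cldn1 by 0.31 (0.0271), which both passed, and Itga6 was −0.13 and did not (0.535).

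Krt6a and Krt17, keratins of periderm and of activated epithelium, differed by −0.43 and −0.31 and did not pass (limma adjusted p = 0.0731 and 0.0729). Among 14 other epithelial transcription factors 1 fell, Prdm1 at −0.34 (limma adjusted p = 0.0234, and passed in 4 of 8 fits with 1 array left out), and 13 did not pass, with a median of −0.14. Gata3 differed by 0.58 (adjusted p = 0.0677), Klf4 by −0.34 (0.0834) and Foxa1 by −0.33 (0.237). Of 13 other surface and polarity genes none passed in limma (1 at an unadjusted p under 0.05), and their median was −0.08, with the smallest p for Lad1 at −0.30 (adjusted p = 0.183). Negative changes made up 9 of these 13, and 10 of the 14 for the transcription factors.

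Taste placode signalling genes gave no call in limma (1 at an unadjusted p under 0.05). Of 17 measured genes 10 had a positive and 7 a negative log2 change, with a median of 0.02. Shh, the hedgehog ligand of the placode, read 10.14, 10.33, 10.64 and 10.76 in mutants and 10.48, 10.23, 10.35 and 10.37 in controls (log2 change 0.11, 95% interval −0.17 to 0.40). Prox1, a homeobox factor of taste placodes that lymphatic endothelium and muscle also express, read 6.36, 6.67, 7.18 and 7.62 in mutants and 7.15, 6.75, 6.08 and 5.41 in controls (0.61, limma adjusted p = 0.372). Hes6, at −0.21 (adjusted p = 0.115), and Sostdc1, at 0.19 (0.252), had the smallest p of this list, and Lgr6 differed by −0.31 (0.339). As with the genes of the main set, mutant 1 gave the lowest mean deviation among the mutants on this list, −0.09, and mutant 4 the highest, 0.17.

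**Figure D4:**
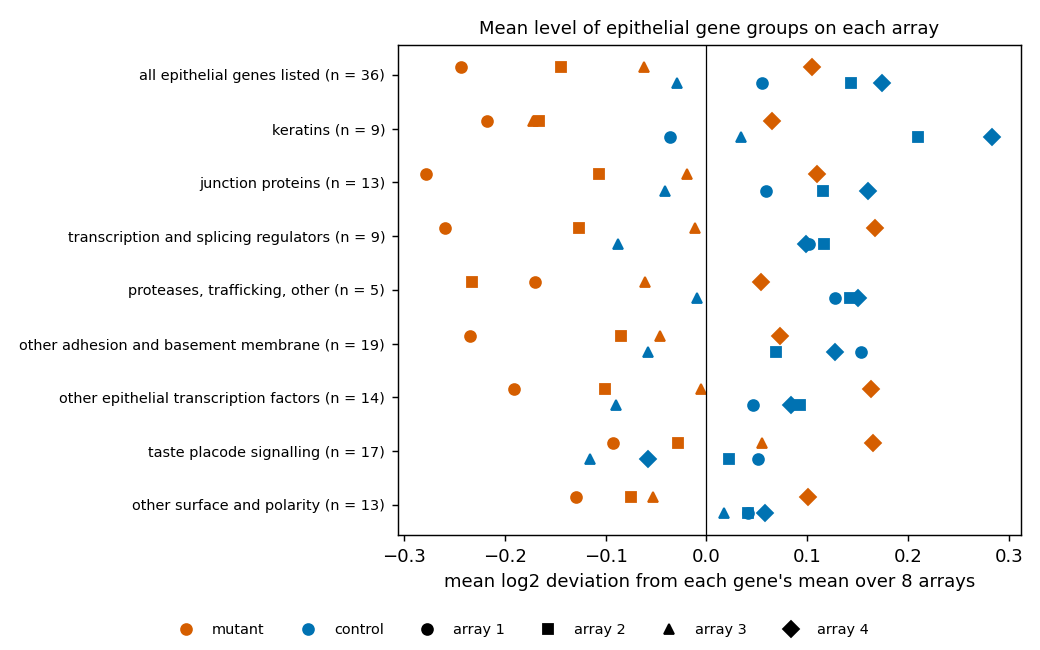
Mean log2 deviation of each gene group on each array, with mutants above controls in each row and symbols for the array number. Mutant 1 or mutant 2 is the lowest mutant and mutant 4 the highest in every row, and the groups overlap in all rows.

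Factors of the epithelial-mesenchymal transition, several of which repress Cdh1, differed in both directions. Of 9 genes listed 2 rose, Snai2 by 0.60 (limma adjusted p = 0.000245) and Snai1 by 0.28 (adjusted p = 0.0471), and 7 did not pass, among them Twist1 at 0.34 (0.0613). Cdh11, Twist2 and Cdh2 differed by 0.21 (0.0892), 0.26 (0.138) and 0.18 (0.243). The repressors Zeb1 and Zeb2 differed by −0.11 (0.403) and −0.22 (0.411). Vim, the filament protein vimentin of mesenchyme, differed by −0.14 (0.12). In 4 of the 9 genes all mutant values were above all control values, and in 1, Vim, all were below. Over all genes 8.92% were higher and 8.87% lower in this way. With each array left out in turn Snai2 passed in 8 of 8 fits (0.58 to 0.62) and Snai1 in 2 (0.23 to 0.33). The mesenchyme, which makes up most of the bud, expresses both Snai genes, and the part of either cell layer in these values was not tested.

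Markers of other cells also moved between the groups. Their mean deviation was −0.46 to −0.18 in mutants and 0.18 to 0.42 in controls for 8 muscle genes, of which 6 fell. For 6 endothelial genes it was 0.01 to 0.35 in mutants and −0.22 to −0.11 in controls, with 2 rising. For 7 macrophage genes it was −0.34 to 0.13 in mutants and 0.04 to 0.21 in controls, with 1 falling. For 7 neural crest mesenchyme genes it was −0.17 to 0.12 in mutants and −0.06 to 0.28 in controls, with 2 falling and 1 rising. The 5 neuron genes all passed, 3 lower and 2 higher. Stmn2, Tubb3 and Elavl4 changed by −1.95, −1.38 and −1.22 on the log2 scale, and Nefl and Nefm by 1.63 and 1.53. Averaged over these opposite changes, the mean deviations were −0.27 to −0.07 in mutants and 0.06 to 0.28 in controls. Of 2 measured Schwann cell genes Sox10 fell (by 0.35 on the log2 scale, limma adjusted p = 0.0219, not called when its probe sets were averaged), and the pair lay at −0.40 to 0.06 in mutants and −0.06 to 0.45 in controls. The 5 thyroid and gland genes gave no call in limma (0 at an unadjusted p under 0.05) and lay at −0.05 to 0.06 in mutants and −0.05 to 0.04 in controls. The part of these cells in the epithelial values was not tested.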

How the data were processed

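Each of 8 tongue bud RNA samples was put on its own Affymetrix array, per the labels. The deposited log2 values, 1 per probe set, were made with RMA per the submitters' processing notes, with version and settings not given in the sources used here. RMA removes background and aligns the arrays, so small shifts shared by many genes can be lost. Of 45101 probe sets, 64 were controls, 34945 named 1 gene, 932 several and 9160 none, by the platform annotation.

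A gene was read on its probe set of highest mean among those naming it alone. Mutants were set against controls by a two-sided moderated test (lmFit, eBayes; limma 3.58.1, R 4.3.3), with Benjamini-Hochberg adjustment over 18193 genes. SE and 95% intervals are moderated. Calls needed an adjusted p below 0.05, and "fell" and "rose" are used only of called genes. The fit was run on simulated data, where a recovery was required only for changes larger than those of the members. The members, the 12 further lists (122 entries, 10 not analysed here) and the alternatives were chosen with earlier results of these data known. Values are given for called or non-overlapping members, for the 4 with the smallest p of each role, and for Trp63, Krt14, Krt8, Epcam, Cdh1 and Sox2. From the other lists, called genes and up to 4 with the smallest p are named. Dsc3 and Shh were added after their values were seen, and all 9 genes of the epithelial-mesenchymal transition list are named. Marker lists of other cells are given as counts, with changes for Sox10 and the neuron genes. The number of arrays limits the precision.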

Additional observations from a re-analysis of the deposited data

Results flagged for a closer look

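Within each group of 4 arrays, the gap between the most extreme value and its nearest neighbour was compared with the range of the group, for the 36 genes and for the mean deviations of the whole set and its 4 roles. Of 82 such groups 6 had a gap past Dixon's 95% critical value for 4 values, and chance flags about 1 in 20.

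Rab25 read 6.89 on mutant 2, below the other mutants at 7.09 to 7.11. Without that array its log2 change was −0.26 and still passed (limma adjusted p = 0.0259). Ovol1 read 5.13 on mutant 4 against 4.93 to 4.94 on the other mutants. Krt13 read 3.84 on control 1 against 4.04 on the other controls, all below the array medians. Cldn6 read 7.05 on control 1 against 7.29 to 7.32 on the other controls. On control 3 the mean deviation of the transcription and splicing regulators was −0.0875, against 0.10 to 0.12 on the other controls. For the proteases, trafficking and other genes it was −0.00928 on control 3, against 0.13 to 0.15.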

How the results depend on the processing

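The members called were 2 of 30 measured when probe sets ending in _s_at, _x_at or _a_at were left out, because Krt7 and Prom1 then have no probe set. In that fit 8.73% of all genes were called. Without variance moderation 2 members were called (Rab25 and Prom1), beside 6.8% of all genes. With 1 array left out 1 to 5 members were called, where all genes called ranged from 1143 to 1583, or 6.28% to 8.7%. The replicate number used as a block left 0 members (10 at an unadjusted p under 0.05) and 966 genes called in limma. The 4 changes are the same in that fit, at adjusted p-values of 0.053 to 0.0608. The labels do not say what the replicate numbers stand for. Deviations of same-numbered arrays from their group means correlated at −0.40 to 0.02, which cannot settle whether they share a litter or day. Fitted over all probe sets, an alternative chosen after seeing the data, 3 members were called and Prom1 was not (adjusted p = 0.052), with 4.43% of probe sets called. With trend and robust options Krt8 and Cldn7 were called too, 6 members in all, while 11.8% of all genes were called. When only genes above the median mean level were fitted, 23 members were measured and 4 were called: Krt8, Krt18, Cldn7 and Prom1. There 20.7% of all fitted genes were called. Krt7 and Rab25, with mean levels of 7.44 and 7.20 against a median of 7.46, were left out of that fit. The median log2 change of the members was −0.24 to −0.13 over all alternatives, and all of them gave it the same sign.

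Signs that turned belonged to uncalled genes near 0. With the mean of all probe sets Dsg2 was 0.17 and Dsp 0.0276, and with median centring Dsg2 was 0.0119 and Cldn6 0.0012. With 1 array left out the lowest and highest changes were −0.0779 and 0.0162 for Cldn6, −0.11 and 0.0618 for Dsp, −0.0730 and 0.0649 for Dsg2, −0.17 and 0.0679 for Grhl2, −0.15 and 0.0564 for St14, −0.17 and 0.0292 for Krt15, −0.10 and 0.0631 for Elf3, and −0.10 and 0.0429 for Cldn4. The cause was not tested.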
